A study of Mus musculus with 18 samples.

Results

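The genes described here encode the subunits of the mitochondrial respiratory chain (complexes I to IV) and of ATP synthase (complex V). They were taken by symbol from a table of 23474 genes: symbols beginning with Ndufa, Ndufb, Ndufc, Ndufs or Ndufv and a digit, Sdha to Sdhd, symbols beginning with Uqcr, Cox4 to Cox8 or Atp5, and the mt-Nd, mt-Co, mt-Cytb and mt-Atp genes. Of 97 symbols matched, 1 pseudogene symbol (Atp5l-ps1) was dropped, which left 96 genes, 83 of them nuclear and 13 encoded in mitochondrial DNA. By complex the nuclear genes numbered 37 in I, 4 in II, 8 in III, 17 in IV and 17 in V, and the mitochondrial genes 7 in I, 1 in III, 3 in IV and 2 in V. Cox4i1, the common form of the subunit 4 of complex IV, was not analysed here. The mice were C57BL/6J males of 17 weeks, housed singly, whose liver and epididymal fat were sampled. For the last 12 weeks they ate either normal chow (the ND group), high-fat chow (HFD), or the high-fat chow with an ethanol extract of green tea at 0.25% by weight (GT). Each of the 6 groups had 3 libraries, 18 in all. The labels do not say whether the libraries of a group came from separate or pooled mice, so p-values measure the spread between these libraries, which may be partly technical.

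The respiratory chain passes electrons from NADH (complex I) and succinate (complex II) through ubiquinone to complex III, then through cytochrome c to complex IV, where oxygen is reduced. Complexes I, III and IV pump protons across the inner mitochondrial membrane, and complex V uses the returning protons to make ATP. All complexes except II are built from the products of both genomes, so their assembly draws on nuclear and mitochondrial genes together. In liver the chain serves fatty acid oxidation and glucose production, and in white fat it serves fat cell differentiation and lipid turnover.

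Several nuclear factors are known to bind promoters of these genes, among them NRF1, ETS proteins such as GABP, and the estrogen-related receptors (ERR). Promoter windows of RefSeq on GRCm38.p6, 250 bases before to 50 after each start, were found for 68 of the 83 nuclear genes, in 73 windows. The NRF1 letters (GCGCA, any base, GCGC) stood on either strand in 18 of the 73 windows (24.7%), against 6.4% of 21263 windows of all protein-coding genes. The ETS letters CCGGAAG stood in 21.9% against 11.6%, and the ERR letters AAGGTCA in 11% against 4.1%. Windows had a median GC content of 57.3% here and 56.3% among all genes. The stretches before the start are printed for 5 genes on which the results below turn, with letters of any of these motifs in capitals. Ndufb4, at chr16:37654369-37654618 (- strand), rose in liver on HFD and holds the NRF1 letters from 191, 79 and 22 bases and the ERR letters from 55 bases before the start. Sdha, at chr13:74350241-74350490 (- strand), also holds the NRF1 letters 3 times, from 98, 55 and 10 bases before the start, and was not called in liver. Cox5b, at chr1:36691237-36691486 (+ strand), Cox5a, at chr9:57520982-57521231 (+ strand), and Ndufb2, at chr6:39592315-39592564 (+ strand), were the genes called lower in fat on GT than on HFD when fat ND 1 was left out, while 0 were called with all 9 fat libraries. Of these 3, only Ndufb2 holds a motif of the 3 searched, the ERR letters from 181 bases before the start.
Ndufb4: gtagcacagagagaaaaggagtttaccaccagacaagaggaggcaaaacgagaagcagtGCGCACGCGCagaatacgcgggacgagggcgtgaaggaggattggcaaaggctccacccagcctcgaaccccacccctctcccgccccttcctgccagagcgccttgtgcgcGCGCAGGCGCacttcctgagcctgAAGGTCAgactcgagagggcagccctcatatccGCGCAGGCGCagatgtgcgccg
Sdha: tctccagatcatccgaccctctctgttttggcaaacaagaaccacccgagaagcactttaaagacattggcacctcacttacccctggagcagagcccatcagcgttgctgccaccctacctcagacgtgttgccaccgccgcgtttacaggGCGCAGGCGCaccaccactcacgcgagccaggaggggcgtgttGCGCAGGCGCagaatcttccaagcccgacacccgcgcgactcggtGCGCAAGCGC
Cox5b: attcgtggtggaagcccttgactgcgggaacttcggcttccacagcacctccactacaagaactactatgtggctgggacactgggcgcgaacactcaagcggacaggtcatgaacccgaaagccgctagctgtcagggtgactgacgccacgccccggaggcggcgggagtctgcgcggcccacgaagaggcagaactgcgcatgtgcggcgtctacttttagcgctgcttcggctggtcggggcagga
Cox5a: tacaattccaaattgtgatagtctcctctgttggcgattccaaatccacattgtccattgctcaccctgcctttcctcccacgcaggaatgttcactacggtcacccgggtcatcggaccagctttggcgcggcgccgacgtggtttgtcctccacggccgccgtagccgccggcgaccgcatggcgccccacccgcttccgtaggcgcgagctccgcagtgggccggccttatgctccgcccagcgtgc
Ndufb2: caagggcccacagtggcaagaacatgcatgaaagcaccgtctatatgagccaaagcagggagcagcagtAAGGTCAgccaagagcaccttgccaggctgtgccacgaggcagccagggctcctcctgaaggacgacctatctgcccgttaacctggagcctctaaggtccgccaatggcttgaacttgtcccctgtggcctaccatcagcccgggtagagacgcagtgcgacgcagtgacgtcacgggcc
Among windows of genes tested in liver, the NRF1 letters stood in 10 of 49 (20.4%) where the gene rose on HFD and in 8 of 21 (38.1%) where it was not called. The ETS letters stood in 12 of 49 (24.5%) and 4 of 21 (19.0%), and the ERR letters in 4 of 49 (8.2%) and 4 of 21 (19.0%). These are matches of letters, not binding sites.

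Levels below are FPKM, fragments counted per unit of transcript length and of library size, which are per length and so can be set side by side between genes. Changes are differences of log2(FPKM + 1) with their SE from a limma fit of all genes of the tissue, and a gene is called when its Benjamini-Hochberg adjusted p over all genes is at most 0.05. Because 1 is added to each value, changes of weakly expressed genes come out smaller than they are. FPKM totals per library ran from 527904 to 608819 in 8 fat libraries, reached 1002765 in fat ND 1, and ran from 680168 to 930139 in liver, and the number of reads behind them was not analysed here. Fat ND 1 stood apart: its 17 testis markers outside the set summed to 104200 FPKM and its epididymal markers to 20340, while its adipocyte markers summed to 7236 against 17000 to 36090 in the other 8 fat libraries. Testis markers also summed to 3506 FPKM in fat ND 3 and 2329 in fat HFD 1, and to at most 201 in the other fat libraries. In fat HFD 2 the epididymal markers summed to 1276 FPKM, of which Crisp1 made up 1172 and Adam7 103, and to at most 14.2 in the other 7. Fat results are therefore given without ND 1 as well as with it. In liver the summed FPKM of skeletal muscle markers was 134 in HFD 2, 56.1 in GT 3, 28.6 in HFD 3 and at most 3.44 elsewhere. All 8 hepatocyte markers reached 10 FPKM in every liver library except HFD 3, where albumin (Alb) is listed at 0, against 21156 to 28177 FPKM in the other 8. This zero was read as a failed estimate, and that library's FPKM total lacks the gene. Several subunits have close copies elsewhere in the genome, and how their reads were shared out was not stated. In bulk tissue, fewer cells of a type and less RNA per cell cannot be told apart.

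The mitochondrial genes were by far the most abundant of the set. They took 23.3% to 42.7% of all FPKM in liver and 11.1% to 24.4% in fat, apart from 1.72% in fat ND 1. The shares of liver HFD 3 (35.3%) and GT 3 (42.7%) lack mt-Co1, listed there at 0. All shares include mt-Atp8, whose FPKM depends on how reads were assigned. The 83 nuclear genes together took 1.54% to 2.52% in liver and 1.67% to 1.94% in fat, with 2.92% in fat ND 1. In liver the highest nuclear level in complex I was that of Ndufa4, a small subunit now placed in complex IV, at 931 to 1089 FPKM on HFD. By the mean over the liver libraries the highest in complex II was Sdha, the flavoprotein that oxidises succinate, and in complex III Uqcrq, a small subunit. In complex IV the highest were Cox6c and Cox7c, and in complex V Atp5g3, which encodes subunit c of the rotating ring, with 796 to 988 FPKM on HFD. In fat the order in complex V differed, with Atp5b, the catalytic beta subunit, at 814 to 1034 FPKM on HFD and Atp5g3 at 304 to 358. Expression of the set was lower in fat than in liver on HFD. Of 77 nuclear genes measured in both tissues 53 were lower and 2 higher in fat, with a median log2 difference of -1.11, and 10 of 12 mitochondrial genes were lower, with a median of -2.36. Over the 10042 genes tested the median difference was 0.75, with 11.4% called lower and 49.6% called higher. Examples with the smallest p were Ndufa6, an accessory subunit of complex I (-2.45 ± 0.31, adjusted p = 9.57e-06), Ndufa10 (-1.27 ± 0.16, adjusted p = 1.02e-05) and Ndufa4 (-1.91 ± 0.25, adjusted p = 1.16e-05). The 2 genes higher in fat were Ndufa4l2, a hypoxia-induced relative of Ndufa4 (1.99 ± 0.68), and Cox7a2l (0.78 ± 0.32). Neither was called in every fit with 1 library left out. With quantile scaling or a filter at 5 FPKM, 0 genes of the set were called higher in fat. Equal FPKM totals shifted the median of all genes from 0.75 to 1.33 and that of the nuclear genes to -0.45, so relative to all genes the nuclear set stood 1.86 lower as deposited and 1.78 lower at equal totals.

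**Figure D1:**
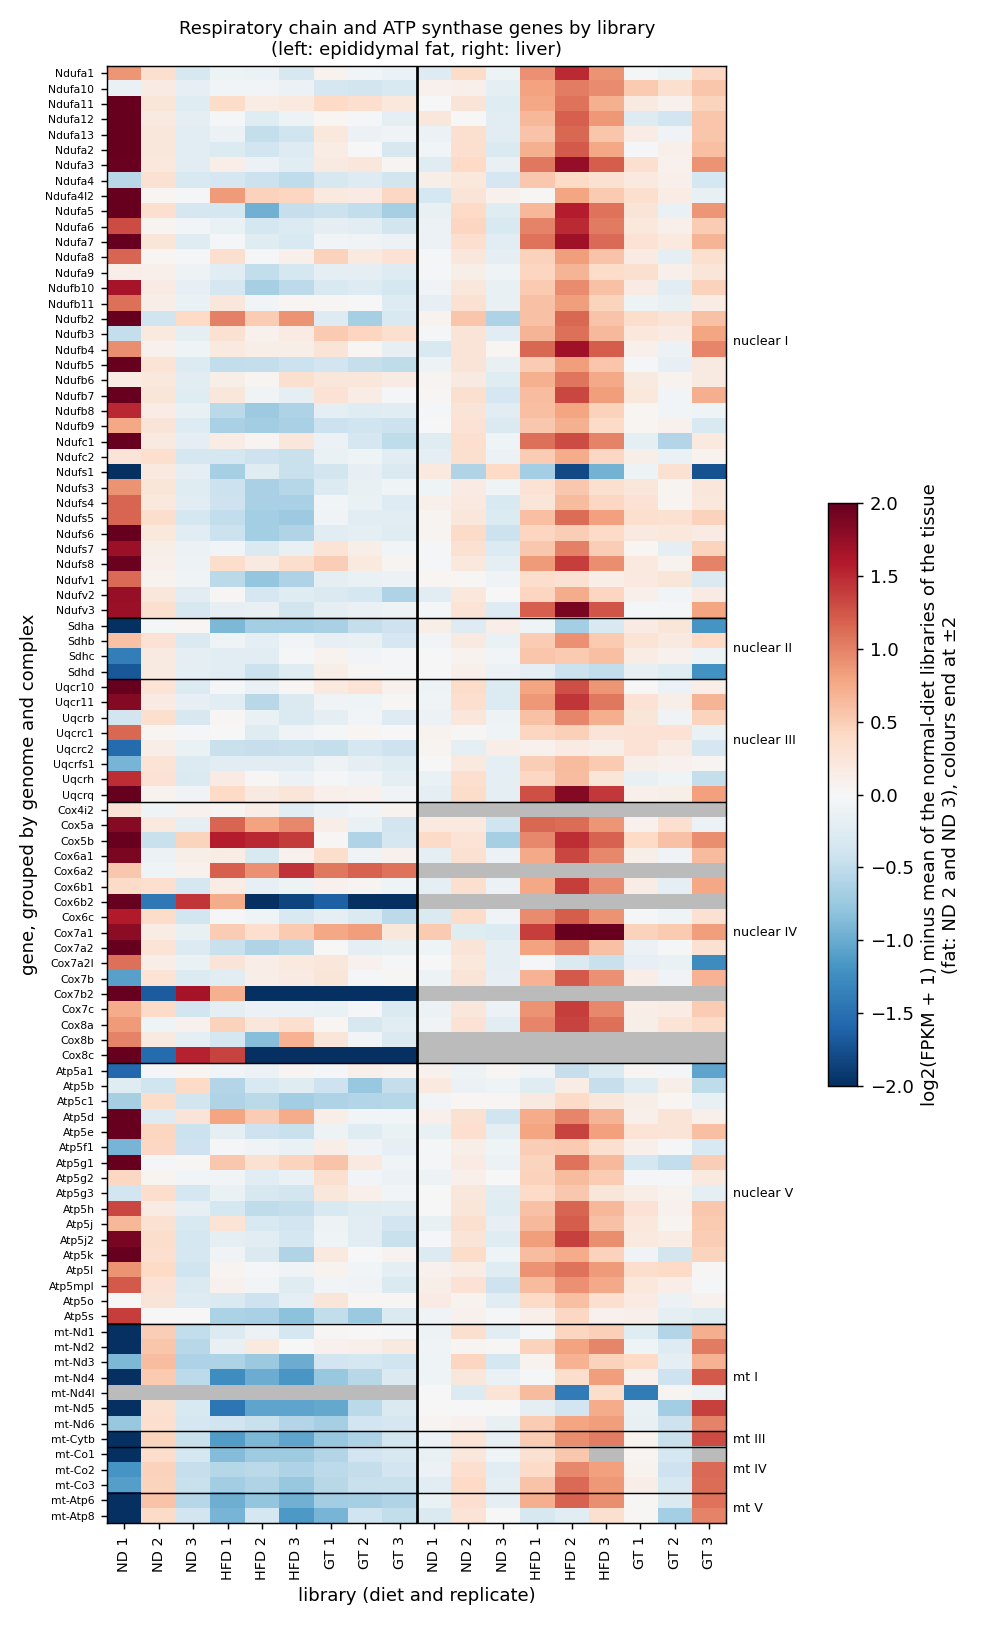
Difference of each library from the normal-diet mean of its tissue on the log2(FPKM + 1) scale (colour, from -2 to 2), for 95 of the 96 genes (vertical, by genome and complex) in 18 libraries (horizontal, fat left and liver right), with the fat reference taken from ND 2 and ND 3. Grey marks genes that did not pass the filter in that tissue and mt-Co1 where it is listed at 0. Liver HFD libraries are above the reference over most nuclear rows, and fat ND 1 departs from every other fat library.

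In liver on the high-fat diet most of the nuclear subunits tested rose, among them most of those of complexes I, III and IV. Their FPKM summed to 12176, 14285 and 10931 in ND 1 to 3, to 18539, 23411 and 18511 in HFD 1 to 3, and to 13362, 12899 and 13866 in GT 1 to 3. All 3 HFD sums lay above all ND and GT sums, and the ND and GT sums overlapped. Of 77 nuclear genes tested, 51 rose and 0 fell, with a median log2 change of 0.76, where 11.9% of the 10670 genes tested in liver rose and 6.67% fell, with a median of -0.02. In 68 of the 77 all 3 HFD libraries lay above all 3 ND libraries, which held for 23.6% of all genes tested. The other 6 nuclear genes (Cox4i2, Cox6a2, Cox6b2, Cox7b2, Cox8b and Cox8c) stayed under the filter of 1 FPKM in 3 libraries. The plot of liver changes by complex shows how the rises were spread: 26 of 37 genes in complex I, 2 of 4 in II, 5 of 8 in III, 10 of 11 in IV and 8 of 17 in V, with median changes of 0.75, 0.10, 0.66, 1.03 and 0.61. Leaving out 1 library at a time gave 14 to 66 calls, with 14 without HFD 2, 16 without ND 3 and 19 without ND 1, and 14 genes were called whichever library was left out.

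**Figure D2:**
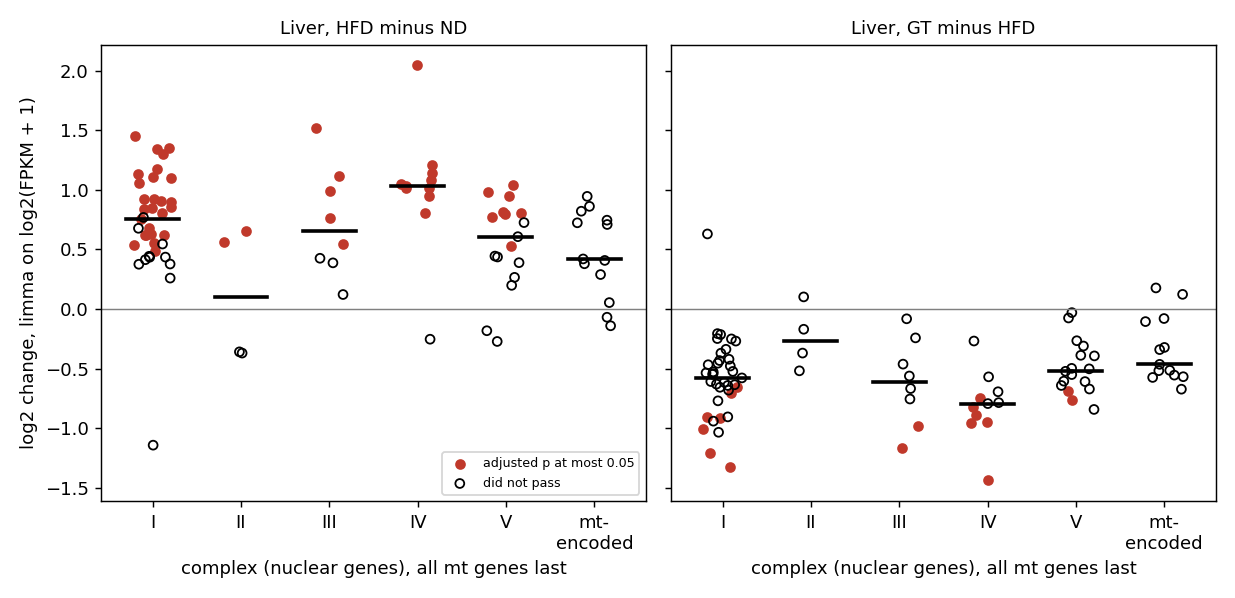
Log2 change in liver, HFD minus ND (left) and GT minus HFD (right), for the nuclear genes of each complex and all mitochondrial genes (horizontal). Each point is a gene, filled red where it was called, and bars are medians. Medians are above 0 in all 5 complexes on the left (0.10 to 1.03) and below 0 in all 5 on the right (-0.27 to -0.79).

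In complex I the largest rise was that of Ndufv3, an accessory subunit of the NADH-oxidising module. It measured 61.8, 76.8 and 52.8 FPKM in the ND libraries, 146, 237 and 153 in the HFD libraries and 62.3, 61.4 and 109.7 in the GT libraries. The HFD libraries were the 3 highest of the 9, and the rise was 1.45 ± 0.26 (adjusted p = 0.00665). Ndufb4, a membrane-arm accessory subunit whose promoter is printed above, measured 21.5, 32.1 and 27.6 FPKM on ND, 60.6, 89.0 and 63.2 on HFD and 28.8, 24.7 and 53.3 on GT. Its rise was 1.35 ± 0.28 (adjusted p = 0.0104). Further accessory subunits followed, among them Ndufa3 (1.34 ± 0.26), Ndufa7 (1.30 ± 0.22), Ndufa6 (1.18 ± 0.22) and Ndufc1 (1.13 ± 0.22). Of the core subunits that carry the iron-sulfur clusters, Ndufs8 (1.05 ± 0.25) and Ndufv2 (0.54 ± 0.17) rose. Ndufs1, the largest core subunit, went the other way without passing the test. It stood at 34.4, 19.4 and 39.6 FPKM on ND, 18.2, 7.84 and 15 on HFD and 27.7, 37.2 and 8.21 on GT, a difference of -1.14 ± 0.49 (adjusted p = 0.126).

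In complex II, which oxidises succinate, the iron-sulfur subunit Sdhb (0.65 ± 0.17, adjusted p = 0.0225) and the membrane anchor Sdhc (0.56 ± 0.14, adjusted p = 0.0197) rose. Sdhc was at 72.2, 76.3 and 70.3 FPKM on ND and 108, 105 and 111 on HFD, with no overlap. The flavoprotein Sdha and the other anchor Sdhd were not called, at -0.36 ± 0.33 and -0.37 ± 0.25. Sdhd measured 191, 204 and 175 FPKM on ND and 167, 141 and 134 on HFD, so these groups did not overlap either, in the opposite direction. Members of this 4-gene complex thus differed in direction.

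In complex III Uqcrq had the largest rise, 1.52 ± 0.24 (adjusted p = 0.00439). It measured 218, 322 and 220.4 FPKM on ND, 613, 893 and 668 on HFD and 269, 271 and 442 on GT. The small subunits Uqcr11 (1.11 ± 0.22) and Uqcr10 (0.99 ± 0.20) rose as well, as did the Rieske iron-sulfur protein Uqcrfs1 (0.55 ± 0.15). The core proteins Uqcrc1 and Uqcrc2 were not called. Their transcripts are of 1653 and 1896 nt, against 405 for Uqcrq, 445 for Uqcr11, 434 for Uqcr10 and 1363 for Uqcrfs1, and liver changes followed length (below).

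In complex IV 10 of 11 genes tested rose. Cox7a1, the isoform typical of heart, muscle and brown fat, had the largest change of the set, 2.04 ± 0.30 (adjusted p = 0.00288). It measured 3.57, 1.68 and 1.63 FPKM on ND, 7.29, 18.4 and 13.0 on HFD and 3.39, 3.55 and 4.68 on GT. All HFD libraries lay above all ND and GT libraries. Muscle markers summed to 0.383, 134 and 28.6 FPKM in HFD 1 to 3. Without HFD 2 and GT 3 the rise was 1.76 (adjusted p = 0.00754), and the change with the extract was -1.27 (adjusted p = 0.0657). Its liver counterpart Cox7a2 rose by less, 0.80 ± 0.19, from 77.4, 98.6 and 72.0 FPKM to 144, 167 and 124. Cox5a and Cox5b, whose products sit next to each other on the matrix side of the enzyme, rose by 1.05 ± 0.20 (adjusted p = 0.00751) and 1.21 ± 0.27 (adjusted p = 0.0143). Cox8a (1.14 ± 0.18), Cox7c (1.08 ± 0.19), Cox6b1 (1.03 ± 0.26), Cox6c (1.02 ± 0.20) and Cox6a1 (1.02 ± 0.23), the ubiquitous forms of small subunits, rose to a like degree. Cox7a2l was the exception, at 82.0, 96.1 and 72.1 FPKM on ND and 81.1, 67.9 and 60.6 on HFD (-0.25 ± 0.28, adjusted p = 0.548). Its transcript is of 1076 nt, against 503 to 618 nt for Cox8a, Cox7c, Cox6b1, Cox6c and Cox6a1, and liver changes followed length (below). Of complex IV only Cox7a1 and Cox7c stayed called after the length and GC correction described below.

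In complex V the rises were found in small subunits of the stalks and the membrane part. They included Atp5j2 (1.04 ± 0.19), Atp5e (0.99 ± 0.21), Atp5l (0.95 ± 0.17) and Atp5d (0.80 ± 0.19). Atp5l, subunit g, measured 279, 291 and 222 FPKM on ND, 489, 561 and 473 on HFD and 336, 347 and 265 on GT. The catalytic subunits did not pass the test. Atp5a1, the alpha subunit, stood at 522, 458 and 498 FPKM on ND and 469, 357 and 403 on HFD (-0.27 ± 0.26), and Atp5b changed by -0.18 ± 0.21. The rising genes named have transcripts of 421 to 955 nt, and Atp5a1 and Atp5b of 2471 and 1916 nt. Liver changes followed length, and only Atp5j2 of complex V stayed called after the length and GC correction described below.

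In liver with the extract the nuclear genes lay nearer to ND than on HFD, with a median of 0.13 for GT against ND. With GT against HFD, 17 nuclear genes fell and 0 rose, where 4.24% of all genes tested fell and 1.14% rose. The median over 77 nuclear genes was -0.58, against -0.04 over all genes. In 56 of the 77 all GT libraries lay below all HFD libraries, which held for 18.2% of all genes. The falls were 7 in complex I, 2 in III, 6 in IV and 2 in V. This comparison and HFD against ND share the 3 HFD libraries, so values of both are given side by side and no overlap between them is read as a result. Cox7a1 changed by 2.04 with HFD and by -1.44 ± 0.30 (adjusted p = 0.0275) with the extract, Ndufv3 by 1.45 and -1.21 ± 0.26 (adjusted p = 0.0311), and Uqcrq by 1.52 and -1.16 ± 0.24 (adjusted p = 0.0269). Ndufc1, a small membrane subunit of complex I, changed by 1.13 and -1.33 ± 0.22 (adjusted p = 0.0128). It was at 16.6, 25.3 and 18.7 FPKM on ND, 43.6, 50.5 and 40.5 on HFD and 17.3, 12.8 and 22.8 on GT, and the HFD libraries lay above the other 6. Cox5a changed by 1.05 and -0.95 ± 0.20 (adjusted p = 0.0269). Cox5b, at 232, 217 and 113 FPKM on ND, 348, 499 and 406 on HFD and 236, 269 and 341 on GT, changed by 1.21 and -0.57 ± 0.27 and was not called with the extract (adjusted p = 0.235). Ndufa1 (-1.01 ± 0.23), Uqcr10 (-0.98 ± 0.20), Cox6c (-0.96 ± 0.20), Ndufa6 (-0.91 ± 0.22), Ndufa7 (-0.91 ± 0.22) and Cox8a (-0.89 ± 0.18) also fell. Ndufs1 and Sdha were the 2 nuclear genes with higher means on GT than on HFD, at 0.63 ± 0.49 and 0.10 ± 0.33, neither called.

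The number of calls with the extract in liver varied with the library left out. It was 0 when HFD 2 was left out, 1 without HFD 3 or without GT 1, 2 when GT 2 was left out, 7 for HFD 1, 8 for ND 1, 9 for ND 3, 15 for ND 2 and 47 for GT 3, and no subunit gene was called in all 9 of these fits. Leaving out HFD 2 and GT 3 together, the 2 liver libraries with most muscle transcripts, gave 12 falls and 0 rises, and for HFD against ND 49 rises and 0 falls, 1 and 3 of them mitochondrial. Liver GT 3 departed from GT 1 and GT 2: its median difference from ND was 0.30 over the nuclear genes and 1.06 over the mitochondrial genes, against 0.14 and 0.03 in GT 1 and 0.07 and -0.41 in GT 2. Between GT and ND, 0 members were called, where limma called 2.6% of all genes. At an unadjusted p under 0.05 there were 2 of 90 members, against 16.5% of all genes. The smallest p belonged to Ndufa10 (0.47 ± 0.15, adjusted p = 0.14) and, among lower genes, to Sdhd (-0.54 ± 0.25, adjusted p = 0.315).

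The liver changes followed transcript length. Of nuclear genes with a coding transcript under 1000 nt, 39 of 50 rose on HFD, with a median of 0.85, and of those of 1000 nt or more 12 of 27 rose, with a median of 0.44. The same trend ran through all genes of the liver: those under 1000 nt had a median of 0.63, with 48.5% called higher, and longer ones a median of -0.05, with 8.55% called higher. Spearman's rho between change and length was -0.53 over the 77 nuclear genes and -0.50 over 10591 genes. Genes share libraries and are not independent, so these values are descriptions. With the extract the trend turned, with medians of -0.65 for shorter and -0.31 for longer members and -0.49 and -0.02 for all genes. After a trend of length and GC content, fitted in each library on the other genes, was taken out, 12 nuclear genes remained higher on HFD, and mt-Atp8 was called lower, where 5.81% of all genes were called higher and 4.31% lower. The median was then 0.24 over 77 nuclear genes and -0.03 over all genes. The 12 were Atp5j2, Cox7a1, Cox7c, Ndufa10, Ndufa3, Ndufa6, Ndufa7, Ndufb4, Ndufc1, Ndufv3, Sdhc and Uqcrq, all of them called in the fit without the correction. For GT against HFD the same correction kept 3 of the 17 falls, those of Ndufc1, Ndufv3 and Uqcrq, and added that of Sdhc (adjusted p = 0.055 without the correction). With these 4 the median was -0.27, and 2.16% of all genes fell. The plot of change against length shows Ndufv3, Ndufc1, Ndufa10 and Sdhc, transcripts of 1582, 1249, 2020 and 3171 nt, well above genes of their length on HFD. Whether RNA quality or library preparation differed between the diets was not tested.

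**Figure D3:**
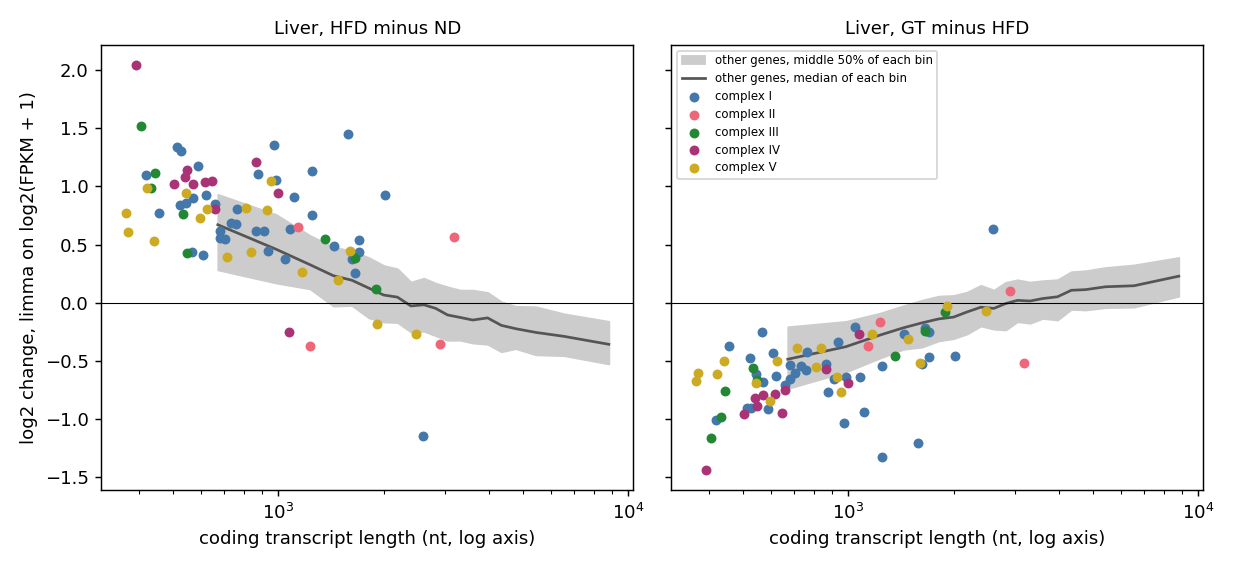
Log2 change in liver (vertical) against coding transcript length (horizontal, log axis) for nuclear genes of complexes I to V (points) over other genes in 20 bins of length (line, median, and band, middle 50%). Left, HFD minus ND, where other genes fall from 0.67 in the shortest bin to -0.36 in the longest. Right, GT minus HFD, where they rise with length.

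None of the 13 mitochondrial genes was called in liver. With HFD against ND 11 of 13 had higher means, with a median of 0.42, and with GT against HFD 11 of 13 had lower means, with a median of -0.46. These medians were 0.19 and -0.30 at equal totals and 0.01 and -0.17 with quantile scaling, which turned mt-Co2, mt-Nd4 and mt-Nd1 slightly below 0 on HFD. The smallest p on HFD belonged to mt-Atp6, the proton-channel subunit a of ATP synthase. It measured 15035, 20823 and 14502 FPKM on ND, 27483, 37489 and 31489 on HFD and 16919.9, 13537 and 35036 on GT, a rise of 0.95 ± 0.32 that did not pass (adjusted p = 0.0617). The GT libraries spanned both other groups, since GT 3 was as high as HFD. The same held for mt-Cytb, the cytochrome b of complex III, at 11182, 14555 and 10819 FPKM on ND, 17256, 22906 and 24572 on HFD and 12627, 8827 and 29774 on GT (0.82 ± 0.37, adjusted p = 0.139). The core complex IV genes mt-Co3 and mt-Co2 changed by 0.86 ± 0.34 and 0.72 ± 0.35, and mt-Nd6, the only complex I gene on the other strand, by 0.71 ± 0.31. Of the other complex I genes mt-Nd2 stood at 0.75 ± 0.30, with mt-Nd3 at 0.41 ± 0.28, mt-Nd4 at 0.38 ± 0.37 and mt-Nd1 at 0.29 ± 0.31, and the HFD libraries of mt-Nd5 spanned those on ND. Without GT 3 the fit called 6 mitochondrial genes higher on HFD. The core catalytic subunit mt-Co1 is listed at 0 in HFD 3 and GT 3 and at 28969.5 to 53659 FPKM in the other 7 liver libraries. These zeros were treated as failed estimates and left out, so its change of 0.42 ± 0.24 comes from 7 libraries. mt-Atp8 shares 43 nt with mt-Atp6, and at 38368 to 121892 FPKM in liver it was listed above it in every library. mt-Nd4l, which shares 7 nt with mt-Nd4, was listed at 0 to 3.08 FPKM in all 18 libraries while mt-Nd4 reached 24157. FPKM of such short, overlapping genes depends on how reads were assigned to them.

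**Figure D4:**
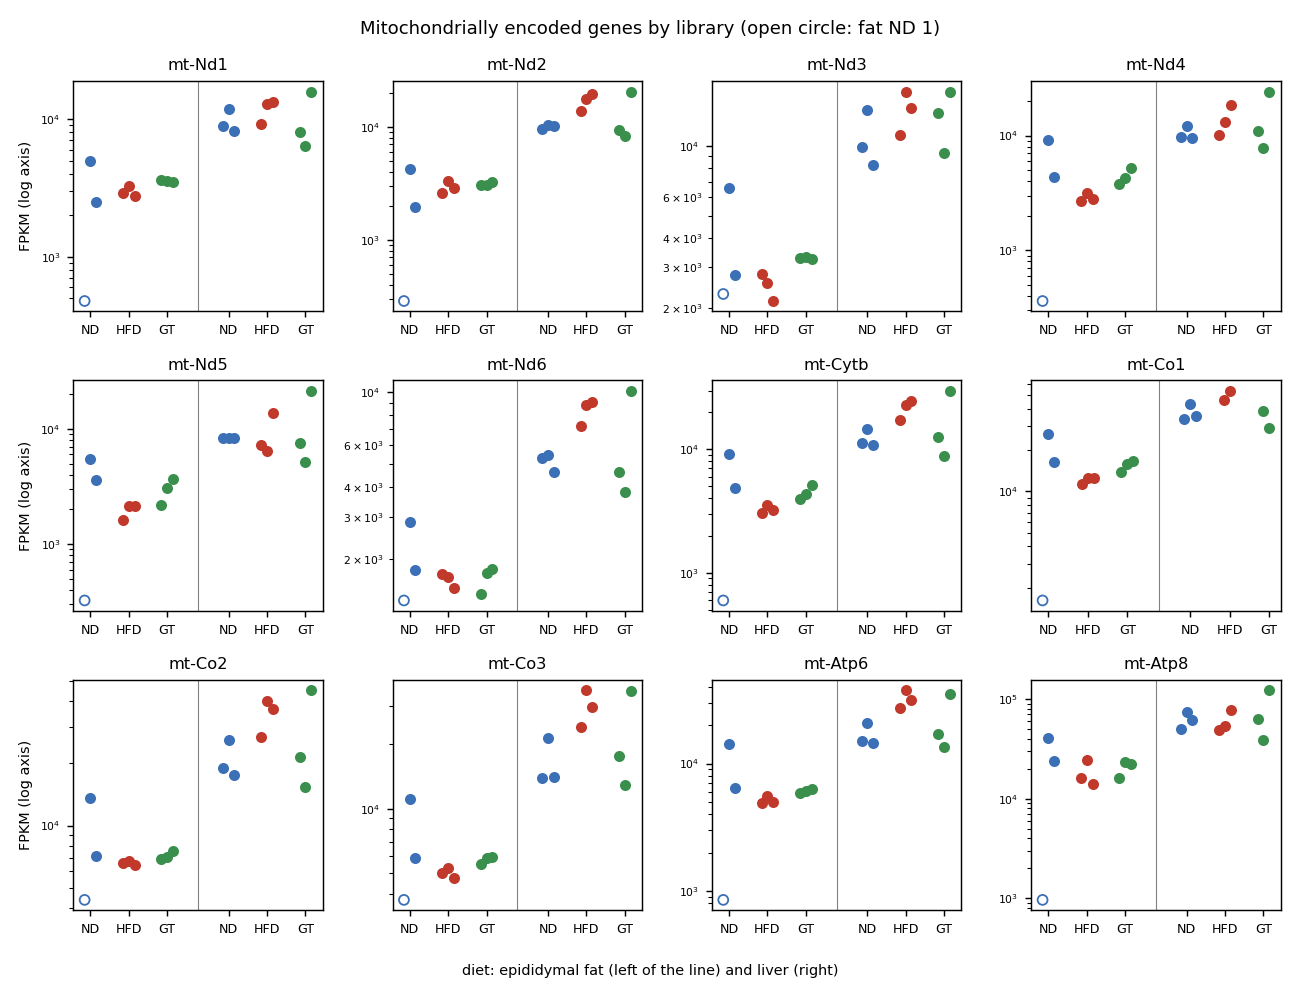
FPKM (log axis, vertical) of 12 mitochondrially encoded genes in every library, by diet, for fat (left of the line) and liver (right). Each point is a library, the open circle is fat ND 1, and the 2 liver libraries with mt-Co1 at 0 are not drawn for that gene. Fat HFD libraries lie within or below ND 2 and ND 3, and liver GT 3 lies above GT 1 and GT 2.

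In fat the nuclear set showed no such common rise. With all 9 libraries limma called 0 members in each of the 3 comparisons, where it called 5.65% (HFD against ND), 0% (GT against HFD) and 0.639% (GT against ND) of all genes. At an unadjusted p under 0.05 there were 10, 1 and 6 of 95 members, against 20.5%, 3.39% and 20.4% of all genes. The smallest p for HFD against ND belonged to Cox6a2 (1.00 ± 0.26, adjusted p = 0.0678) and Ndufb9 (-0.92 ± 0.30, adjusted p = 0.131). Without ND 1, 5 genes rose and 17 fell on HFD against ND, where 17.8% of 12859 genes tested rose and 9.62% fell. The 5 rises include that of Cox6a2, whose call is not independent of the filter (below). The median was -0.17 over 83 nuclear genes and -0.77 over 12 mitochondrial genes, against 0.02 over all genes. Without ND 2 as well, these medians were 0.056 and -0.29, with 46 of 81 nuclear genes higher, and without ND 3 they were -0.41 and -1.17. Quantile scaling gave a mitochondrial median of -0.013 and a nuclear one of -0.31, and called 22 nuclear genes lower and 5 higher and 2 mitochondrial genes each way. Of the falls 9 were nuclear genes of complex I, 1 each of complexes II and III and 2 of complex V, and 4 were mitochondrial. Leaving out a further library gave 7 calls without HFD 3, 9 without ND 2, 11 without HFD 1 or HFD 2, 12 without GT 2, 17 without GT 1, 18 without GT 3 and 49 without ND 3. Of the 11 without HFD 1, which also held testis markers, 3 rose and 8 fell, and of the 11 without HFD 2, with its epididymal markers, 5 rose and 6 fell.

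The largest rise in fat without ND 1 was that of Cox5b, followed by Cox6a2 and Cox5a. Cox5b measured 42.7 and 79.7 FPKM in ND 2 and ND 3, 176, 168 and 156 on HFD and 59.7, 38.1 and 46.0 on GT. All HFD libraries lay above these ND and GT libraries, and its change was 1.49 ± 0.27 on HFD (adjusted p = 0.00537). Cox5a measured 55.5 and 42.1 FPKM in ND 2 and ND 3, 109, 85.1 and 95.2 on HFD and 52.9, 43.9 and 37.2 on GT, a change of 0.98 ± 0.19 (adjusted p = 0.00761). Atp5d, the delta subunit in the central stalk of ATP synthase, rose by 0.68 ± 0.17 (adjusted p = 0.0213), from 53.8 and 76.8 to 112, 92.2 and 108 FPKM, and was at 70.7, 61.6 and 62.1 on GT. Ndufb2, an accessory subunit of complex I, was at 15.7 and 27.9 FPKM in ND 2 and ND 3, 43.1, 30.2 and 40.2 on HFD and 17.4, 12.9 and 16.8 on GT, and just missed the threshold (0.80 ± 0.26, adjusted p = 0.0503). In ND 1, with its testis markers, these 4 genes stood at 289, 174, 462 and 205 FPKM, above all other fat libraries. Cox6a2, the heart and muscle isoform, also rose (1.18 ± 0.21, adjusted p = 0.00518), from 0 and 0.122 to 1.42, 0.989 and 1.89 FPKM, a low level. With ND 2 and ND 3 under 1 FPKM, it passed the filter only through HFD and GT libraries. Its calls against ND are therefore not independent of the filter. Ndufa4l2 rose from 5.76 and 5.48 to 10.9, 8.08 and 7.93 FPKM (0.58 ± 0.17, adjusted p = 0.0391).

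**Figure D5:**
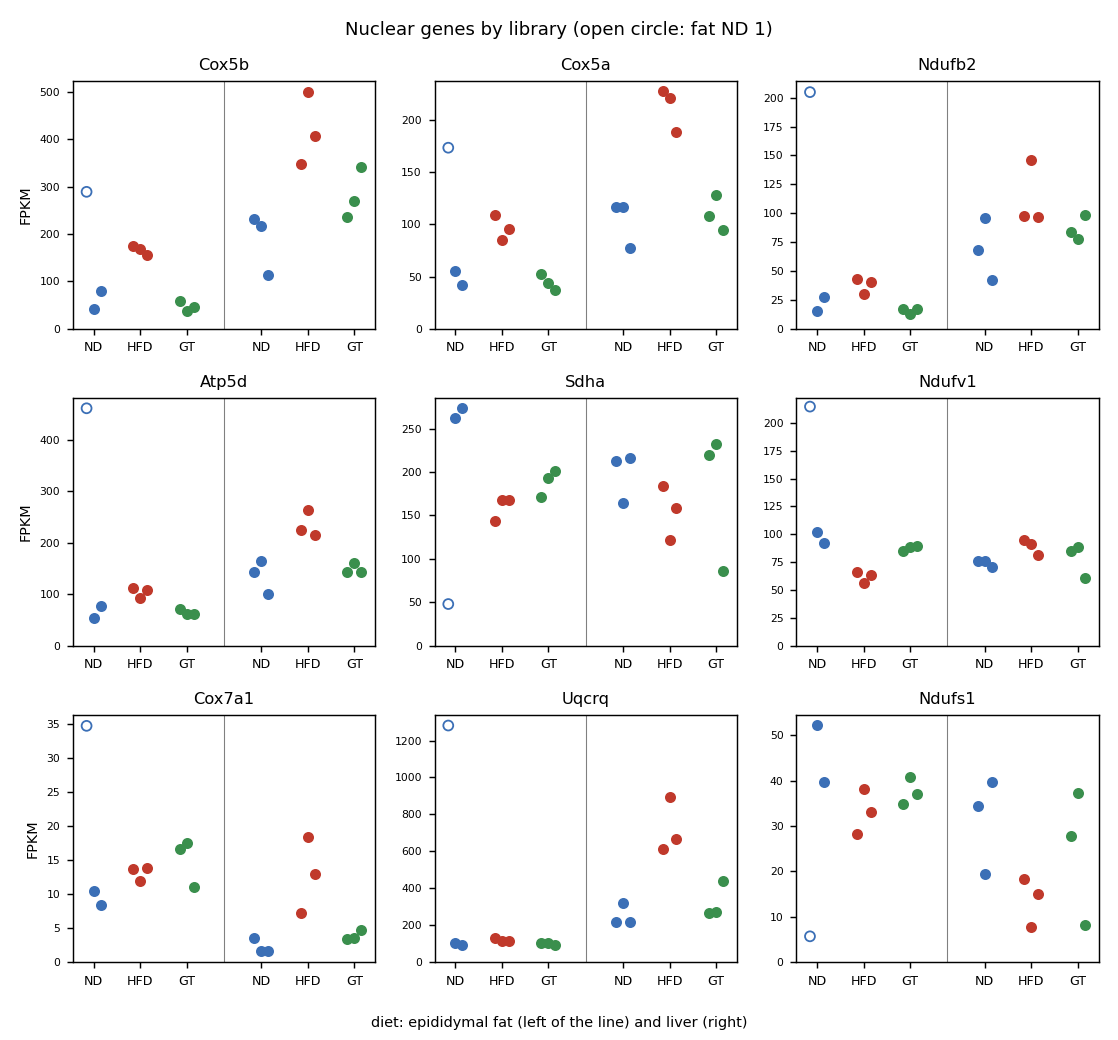
FPKM (vertical, from 0) of 9 nuclear genes in every library by diet, for fat (left of the line) and liver (right). Each point is a library and the open circle is fat ND 1. In fat, Cox5b, Cox5a, Ndufb2 and Atp5d are higher in the HFD libraries than in ND 2, ND 3 and the GT libraries, and Sdha and Ndufv1 are lower on HFD than in ND 2 and ND 3.

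The falls in fat took in catalytic and core subunits. Sdha measured 262 and 274 FPKM in ND 2 and ND 3, 143, 168 and 168 on HFD and 171, 193 and 201 on GT. The HFD libraries were the lowest of the 8, and the fall was -0.75 ± 0.13 (adjusted p = 0.00514). Ndufv1, which binds NADH in complex I, was at 102 and 92.2 FPKM in ND 2 and ND 3, 66.5, 56.5 and 63.3 on HFD and 84.6, 88.7 and 89.2 on GT, a fall of -0.64 ± 0.12 (adjusted p = 0.00623). The complex I subunits Ndufs5 (-0.63 ± 0.20), Ndufs4 (-0.57 ± 0.16), Ndufs6 (-0.57 ± 0.15) and Ndufs3 (-0.55 ± 0.16) fell, as did the membrane-arm subunits Ndufb9 (-0.66 ± 0.16), Ndufb8 (-0.63 ± 0.13) and Ndufb10 (-0.51 ± 0.15). In complex III the core protein Uqcrc2 fell (-0.46 ± 0.12), and in complex V Atp5h, the stator subunit d (-0.45 ± 0.14), and Atp5s, a coupling factor (-0.70 ± 0.17). Of the mitochondrial genes mt-Nd5 (-1.18 ± 0.28, adjusted p = 0.0158), mt-Nd4 (-1.14 ± 0.30, adjusted p = 0.0257), mt-Cytb (-1.03 ± 0.27, adjusted p = 0.0241) and mt-Co1 (-0.76 ± 0.24, adjusted p = 0.0454) fell. With quantile scaling mt-Nd5 kept its call, mt-Nd4, mt-Cytb and mt-Co1 lost theirs (-0.38, -0.027 and -0.12), mt-Nd6 was called lower and mt-Co2 and mt-Co3 higher. mt-Nd4 was at 9129 and 4392 FPKM in ND 2 and ND 3, 2673, 3179 and 2819 on HFD and 3749, 4290.3 and 5183 on GT. mt-Nd2, at 4226 and 1949.5 FPKM in ND 2 and ND 3 and 2581, 3291 and 2861 on HFD, overlapped between the diets. The calls of Cox5a, Cox5b, Sdha, Ndufv1 and Ndufb8 stood whichever further library was left out. That of Cox6a2 did too, but it is not independent of the filter. In the same libraries macrophage markers summed to 531 and 414 FPKM in ND 2 and ND 3, 4958, 3695 and 5226 on HFD and 3326, 2881 and 1357 on GT, and adipocyte markers to 36090 and 24320, to 19570, 18660 and 17000, and to 24680, 26450 and 28660. The part of this change in cell types in the values of the set was not tested. Spearman's rho between change and length over the 83 nuclear genes was -0.15 without ND 1 and 0.289 with it. Without ND 1 the length and GC correction gave 11 rises, 5 of them called before it, and 16 falls, 13 of them called before it, where 21.6% of all genes rose and 10.7% fell. With all 9 fat libraries it turned the nuclear median from -0.49 to 0.32, with 56 of 83 genes higher and 3 called.

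With the extract, Cox5b, Cox5a and Ndufb2 were the members called in fat without ND 1, all lower on GT than on HFD, where 0.801% of all genes fell and 0.894% rose. Cox5b changed by -1.80 ± 0.24 (adjusted p = 0.0412), Cox5a by -1.10 ± 0.17 (adjusted p = 0.0412) and Ndufb2 by -1.21 ± 0.23 (adjusted p = 0.0492). Their GT libraries all lay below their HFD libraries. Atp5d (-0.68 ± 0.15, adjusted p = 0.071) and Cox8a (-0.50 ± 0.13, adjusted p = 0.0916) came next and did not pass. On the higher side Ndufv1 (0.49 ± 0.11, adjusted p = 0.0671) and Ndufb8 (0.41 ± 0.12, adjusted p = 0.106) had the smallest p. In all, 53 of 83 nuclear and 12 of 12 mitochondrial genes had higher means on GT, with medians of 0.08 and 0.25, against -0.12 over all genes, and with quantile scaling the mitochondrial median was -0.08. The number of calls fell to 0 on leaving out any HFD library, GT 2 or GT 3, and was 2 without GT 1 and 7 without ND 2 or without ND 3. For GT against ND without ND 1, Cox6a2 was higher (1.11 ± 0.21, adjusted p = 0.0177) and Sdha lower (-0.51 ± 0.13, adjusted p = 0.0467), where 7.5% of all genes were higher and 3.16% lower. Here too Cox6a2 passed the filter only through HFD and GT libraries. Leaving out a further library gave 0 calls without GT 1 or GT 2, 1 without any of the HFD libraries, 4 without ND 2 and 16 without ND 3. Cox5b and Cox5a did not pass in that comparison, at -0.30 ± 0.27 and -0.13 ± 0.19.

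The response to HFD differed between the tissues. In a fit of all 18 libraries, the change with HFD in fat was below that in liver for 21 nuclear genes and above it for 0, where 2.55% of 10042 genes were below and 5.98% above. The 21 comprised 16 genes of complex I, 1 of III, 2 of IV and 2 of V. Ndufs5 differed by -1.86 ± 0.42 (adjusted p = 0.0142), Ndufa6 by -1.86 ± 0.44 (adjusted p = 0.0192) and Ndufv3 by -2.26 ± 0.56 (adjusted p = 0.0235). Fat ND 1, with its high nuclear levels, is part of that fit, and without it 56 members were called, 52 nuclear and 4 mitochondrial, all below, where 9.71% of all genes were below and 11.9% above. Without liver HFD 2 and GT 3 together 0 were called, and without liver ND 3, without liver HFD 2 or without fat HFD 3 alone 1 was. Leaving out another single library gave 4 (liver ND 1), 5 or 6 (fat HFD 2, HFD 1), 10 (liver HFD 1 or HFD 3), 11 or 13 (fat GT 2, GT 1), 13 (liver GT 1), 41 (fat ND 2) and 54 (fat ND 3) calls. Equal FPKM totals moved the median of all genes from 0.23 to 0.71, and the nuclear genes stood 1.5 below all genes as deposited and 1.40 below at equal totals. Cox5b, which was called higher on HFD in liver and, only with ND 1 left out, in fat, was not among them. For GT against HFD no member's change was called as differing between the tissues, where limma called 0.00996% of all genes. At an unadjusted p under 0.05 there were 14 of 89 members, against 6.34% of all genes. Without fat ND 1 limma called 9 members, all higher in fat than in liver, where 2.78% of all genes were higher.

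The testis isoforms of complex IV, Cox6b2, Cox7b2 and Cox8c, were highest in the fat libraries with the largest sums of testis markers. Cox8c was listed at 1651 FPKM in fat ND 1, 43.5 in ND 3, 38.0 in HFD 1, 4.28 in ND 2 and at most 0.544 in the other fat libraries, and at 0 in all liver libraries. Cox6b2 followed the same order, with 1076, 20.9, 12.6 and 2.05 FPKM, as did Cox7b2, with 201, 20.9, 10.4 and 1.19. The ubiquitous Cox6b1 was at 413 FPKM in ND 1 and 252 to 399 in the other fat libraries. The muscle isoforms Cox6a2 and Cox8b were at most 1.42 and 1.79 FPKM in liver, both in HFD 2. In fat Cox8b ran from 10.4 to 40.1 FPKM and Cox7a1 from 8.35 to 34.7 over all 9 libraries. Cox4i2, the lung and oxygen-sensitive isoform, was at 1.68 to 2.71 FPKM in fat and at most 0.216 in liver.

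Other genes of the pathway were taken from 4 lists. In liver on HFD, where 11.9% of all genes rose and 6.67% fell, 16 of 46 factors that assemble the complexes rose and 0 fell, with a median of 0.32. Among them were Uqcc2 (1.54 ± 0.23, adjusted p = 0.00277), which helps build complex III, Ndufaf3 (0.97 ± 0.14, adjusted p = 0.00297), the copper chaperone Cox17 (1.08 ± 0.19, adjusted p = 0.00584) and Atpif1, the inhibitor of ATP synthase (1.13 ± 0.15, adjusted p = 0.00185). With the extract 7 of the 46 fell and 0 rose, against 4.24% and 1.14% of all genes. Atpif1 fell by -1.05 ± 0.15 (adjusted p = 0.00727), Sco2 by -1.18 ± 0.20 (adjusted p = 0.0144) and Uqcc2 by -0.97 ± 0.23 (adjusted p = 0.0394). Sco2 was not called on HFD (0.29 ± 0.20, adjusted p = 0.328), and on GT it was below ND (-0.89 ± 0.20, adjusted p = 0.0471). Of all liver genes with transcripts under 1000 nt, 48.5% rose on HFD and 18.2% fell with the extract. The lists were not split by transcript length. Of 20 electron carriers and enzymes of ubiquinone synthesis 3 rose on HFD, Coq7, Coq10a and Coq8b, while cytochrome c (Cycs) changed by 0.11 ± 0.15 (adjusted p = 0.626) and the acyl carrier subunit Ndufab1 by 0.76 ± 0.28 (adjusted p = 0.0757). Of the same 20, Coq10b rose and 0 fell on GT against HFD (0.78 ± 0.15, adjusted p = 0.0207). Coq10b was also above ND on GT (0.92 ± 0.15, adjusted p = 0.0117). On HFD 1 of 21 regulators of mitochondrial gene expression rose, Ssbp1. The coactivator Ppargc1a changed by -0.52 ± 0.21 (adjusted p = 0.108), Tfam, which packs mitochondrial DNA and takes part in its transcription, by -0.64 ± 0.30 (adjusted p = 0.15), Esrra by 0.27 ± 0.18, Gabpa by -0.40 ± 0.19 and Nrf1 by -0.23 ± 0.17, none called. Of 21 other mitochondrial genes used as signs of mitochondrial mass 5 rose, among them citrate synthase (Cs, 0.55 ± 0.16), and 1 fell, with a median of -0.04. In fat on HFD without ND 1 the 4 lists gave 1 rise and 1 fall of 46, 1 and 3 of 20, 1 and 3 of 20 and 3 and 0 of 21, where 17.8% of all genes rose and 9.62% fell. There Cycs (0.48 ± 0.13, adjusted p = 0.0276) and Esrra (0.66 ± 0.15, adjusted p = 0.0138) rose, as did Acad9, Hspe1, Slc25a5 and Tomm20. Nubpl had the smallest p among the falls (-0.93 ± 0.19, adjusted p = 0.00985). Nrip1, a corepressor of oxidative genes in fat, fell (-0.86 ± 0.20, adjusted p = 0.0151), as did Mterf3 (-0.73 ± 0.18), Pdss2 (-0.67 ± 0.18), Etfa (-0.62 ± 0.15), Coq8a (-0.50 ± 0.15) and Tfb2m (-0.43 ± 0.13). Ppargc1a, at 2.98 and 2.72 FPKM in ND 2 and ND 3 and 0.68, 0.82 and 0.50 on HFD, did not pass the filter and was not tested.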

How the data were processed

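RNA-seq of poly(A) RNA was deposited as 1 table of FPKM for 23474 gene IDs and 18 libraries, 803 IDs without a symbol. Per the submitters' processing notes the authors used CASAVA 1.8.2, STAR 2.4.0 and Cufflinks 2.1.1. Which genome they aligned to is not stated here. Reads per library are unknown, and with them the depth behind each FPKM. Genes with at least 3 libraries of a fit at 1 FPKM were kept, and log2(FPKM + 1) was fitted with limma 3.58.1 (R 4.3.3; trend and robust options), with Benjamini-Hochberg adjustment over all genes kept and calls at an adjusted p of at most 0.05. Fits held the 9 libraries of a tissue, the 8 fat libraries without ND 1, or all 18. The scripts were tested on simulated data. The 2 values of 0 of mt-Co1 in liver were set to missing. Transcript length and GC content were known for all 96 genes and for 96.6% of all IDs. Alternatives were equal totals, quantile scaling, a pseudocount of 0.1, a filter at 5 FPKM or none, a block by replicate number, only the 2 diets compared, each library left out, and, added after seeing the data, a correction for length and GC content and leaving out libraries with RNA of other tissues. Genes, lists, rules and tests were chosen with earlier results of these data known. Named genes were up to 10 of largest change in each direction, those of smallest p where few passed, the most abundant, isoform pairs and all mitochondrial genes, and further subunits were named for their role after their values were seen. Of the 96 genes, 1 is not reported here by itself.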

Additional observations from a re-analysis of the deposited data

Results flagged for a closer look

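In the fit of all 18 libraries, fat ND 1 included, the change on HFD differed between fat and liver for 21 nuclear genes, by a test of the difference itself. All 21 were lower in fat, where 2.55% of 10042 genes were lower and 5.98% higher. The number called was 56 without fat ND 1 and 6 with the length and GC correction. It was 1 without liver ND 3, liver HFD 2 or fat HFD 3, and 0 without liver HFD 2 and GT 3 together. Ndufa5 had the largest difference of the set, -2.79, and was not called (adjusted p = 0.0726 by limma). Among the genes called, the largest differences (fat change minus liver change, log2) were -2.26 for Ndufv3, -2.23 for Ndufa7, -2.18 for Cox7a1, -2.08 for Uqcr11, -2.07 for Ndufa3, -1.93 for Atp5j2, -1.86 for Ndufs5 and Ndufa6, -1.75 for Ndufb8 and -1.74 for Ndufb10. Of these Ndufs5 was called whichever single library was left out.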

How the results depend on the processing

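Numbers are members called. Leaving out 1 library at a time gave, for fat with all libraries, 0 to 22 on HFD against ND, 0 to 3 on GT against HFD and 0 to 3 on GT against ND, and without ND 1 7 to 49, 0 to 7 and 0 to 16. It gave 14 to 66, 0 to 47 and 0 to 0 in liver, 1 to 56 and 0 to 9 for the tissue differences in HFD against ND and GT against HFD, and 48 to 83 for fat against liver. The length and GC correction gave 13 and 4 in liver (HFD against ND, GT against HFD), 3 in fat on HFD against ND, 5 and 5 in fat without ND 1 (GT against HFD, GT against ND), and 6 for the tissue difference on HFD. With fat ND 1 left out as well it gave 33 there and 7 for the tissue difference on GT against HFD. Equal FPKM totals gave 1 in fat on HFD against ND, 7 in liver on GT against HFD, 11 for the tissue difference on HFD and 38 for fat against liver. Quantile scaling gave 6 in liver on GT against HFD and 6 in fat without ND 1 on GT against ND. No filter gave 2 in liver on GT against HFD, and in fat without ND 1 gave 13 (HFD against ND), 0 (GT against HFD) and 1 (GT against ND), where a filter at 5 FPKM gave 5 on GT against HFD and 1 on GT against ND. Fitting only the 2 diets gave 5 in liver on GT against HFD, 5 in fat on GT against HFD with all libraries, and 10, 5 and 0 in fat without ND 1. Without fat ND 1 and HFD 1, 11 were called on HFD against ND and 1 on GT against ND, and without liver HFD 2 and GT 3 0 for the tissue difference on HFD. The causes of these differences were not tested.

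The replicate block gave 7 in liver on GT against HFD, and 12, 0 and 0 in fat without ND 1 (HFD against ND, GT against HFD, GT against ND). Correlations of same-numbered libraries ran from -0.0692 to 0.643 in fat and from -0.301 to 0.418 in liver. Those of libraries with different numbers ran from -0.741 to 0.66 and from -0.403 to 0.399. These ranges overlap and do not settle whether the numbers pair libraries, and the main fits did not pair them. For genes named with values, 1462 planned and 258 added alternatives kept direction and side of the threshold, 385 and 51 lost the call, and 36 and 8 gained one. Of the genes not called, direction turned in liver on HFD with quantile scaling for mt-Co2 (-1.51e-05), mt-Nd4 (-0.076) and mt-Nd1 (-0.094), with the length and GC correction for mt-Nd3 (-0.36) and with its zeros kept for mt-Co1 (-4.78). On GT against HFD Sdha in liver ran from -0.15 (without GT 2) to 0.56 (without GT 3), and was below 0 without HFD 2 or GT 1 too. On GT against ND in fat without ND 1, Cox5a ran from -0.32 (without ND 3) to 0.071 (without ND 2) and was 0.11 with the length and GC correction, and Cox5b ran from -0.75 (without ND 2) to 0.14 (without ND 3). FPKM without counts gives no sampling error, so the spread between 3 libraries limits each value.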
